A study of Mus musculus with 6 samples.

Results

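The 45 genes described here carry the cell cycle from its commitment step to the division of the chromosomes. They were chosen by name, and their Ensembl identifiers were matched without the version to mouse symbols in the deposited table of 56884 genes, where all 45 were found. They were read in 6 endometriosis-like lesions of mice, 3 control (WT) and 3 Dnmt3a knockout (KO) lesions, each sequenced as 1 library of messenger RNA. The donor of the tissue was a female Dnmt3a f/f mouse for WT and a female Dnmt3a f/f:PR Cre/+ mouse for KO, both 8 weeks old, so that both genotypes carry the floxed alleles and only KO donors carry Cre. Cre is expressed from the progesterone receptor gene, so that donor cells that never expressed it keep Dnmt3a, as do the cells that the recipient contributes to a lesion. The donors of both genotypes received 17β-estradiol, and the recipients, wild-type C57BL/6J mice of 8 weeks, carried an estrogen pellet. The sample labels give collection at 4 weeks and describe uterine fragments injected into the abdominal cavity, whereas the methods of the study describe a fragment sutured to the mesenteric membrane and an earlier day of collection.

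Before a cell divides, it copies its DNA and then separates the copies. In the preceding gap phase, D-type cyclins with CDK4 and CDK6 inactivate the retinoblastoma proteins, which releases E2F transcription factors to switch on the genes of DNA synthesis. Origins are licensed by loading the MCM helicase, and the genes of mitosis are switched on later, through the B-MYB and FOXM1 factors that replace the repressor complex DREAM. In the endometrium, estrogen drives epithelial division, and transcripts of these genes are widely used as a measure of how many cells of a tissue are cycling. In RNA from a whole lesion, fewer cycling cells and less RNA per cycling cell cannot be told apart.

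The libraries held 45370342 to 57239184 counts. Levels are given in CPM, the count scaled to a common library size, here with TMM factors. Dnmt3a had 43.9 to 52.7 CPM in WT and 30.3 to 36.2 CPM in the KO lesions, so the groups did not overlap and transcript remained in every KO lesion. The paper reports by staining that the protein was missing from the epithelium and stroma of KO lesions. The source of the remaining transcript was not tested. The epithelial genes Epcam (211 to 468 CPM) and Krt8 (287 to 618 CPM) and the steroid receptor genes Pgr (135 to 255 CPM) and Esr1 (93.2 to 445 CPM) were present in every lesion, while the uterine gland factor Foxa2 reached at most 2.62 CPM and was at 0 in KO lesion 3. WT lesions 1 and 3 stood apart by transcripts of skeletal muscle, with summed levels of 31276 and 33086 CPM over 8 marker genes and 3.69 to 14.1 CPM in the other lesions. WT lesion 2 stood apart by neutrophil transcripts, with 9830 CPM over 6 genes and 36.1 to 478 CPM in the others.

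The promoters of the 2 arms of the programme differ in their letters, and short stretches are shown here because the later results set these arms against each other. RefSeq promoter sequences of GRCm38.p6, from 250 bases before to 50 bases after the start site, were found for 37 of the 45 genes. They were searched on both strands for the E2F-type motifs TTTCCCGC and TTTGGCGC and for the cell cycle genes homology region (CHR) in the forms TTTGAA and TTCGAA. The stretches below run 5′ to 3′ from 170 bases before to 30 bases after the start site, with E2F-type motifs in capitals in Mcm5 and Mcm6 and CHR elements in capitals in Cdk1, Cenpf and Mki67.
Mcm5, chr8:75109339-75109538, plus strand: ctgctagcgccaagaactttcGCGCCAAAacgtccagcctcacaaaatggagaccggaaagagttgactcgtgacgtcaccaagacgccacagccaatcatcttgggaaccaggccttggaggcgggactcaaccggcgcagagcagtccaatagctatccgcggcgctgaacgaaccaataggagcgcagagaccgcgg
Mcm6, chr1:128359676-128359875, minus strand: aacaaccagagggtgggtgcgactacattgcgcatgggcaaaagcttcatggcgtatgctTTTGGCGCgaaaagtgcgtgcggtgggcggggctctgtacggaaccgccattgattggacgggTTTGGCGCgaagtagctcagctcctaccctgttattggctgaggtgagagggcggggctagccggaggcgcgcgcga
Cdk1, chr10:69352883-69353082, minus strand: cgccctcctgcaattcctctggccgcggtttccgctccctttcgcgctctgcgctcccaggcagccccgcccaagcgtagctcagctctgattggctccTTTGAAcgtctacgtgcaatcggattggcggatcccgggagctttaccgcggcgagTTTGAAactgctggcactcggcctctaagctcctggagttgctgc
Cenpf, chr1:189688057-189688256, minus strand: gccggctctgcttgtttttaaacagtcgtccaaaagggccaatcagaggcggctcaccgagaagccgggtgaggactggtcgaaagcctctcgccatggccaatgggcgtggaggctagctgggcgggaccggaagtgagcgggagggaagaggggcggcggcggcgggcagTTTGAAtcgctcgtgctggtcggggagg
Mki67, chr7:135716350-135716549, minus strand: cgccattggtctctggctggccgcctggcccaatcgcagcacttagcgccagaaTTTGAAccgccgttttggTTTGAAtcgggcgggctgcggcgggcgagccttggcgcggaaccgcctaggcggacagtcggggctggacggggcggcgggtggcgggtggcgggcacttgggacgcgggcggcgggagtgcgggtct

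In Mcm6, the E2F-type motif stood at positions -110 and -47 from the start site, and in Mcm5 it stood at -149 on the opposite strand. The CHR element of Cdk1 stood at -71 and -15, that of Mki67 at -116 and -98, and that of Cenpf at 3, just inside the transcript. Either of the 2 E2F-type forms searched was found for 6 of 13 replication genes with a promoter sequence (Mcm3, Mcm5, Mcm6, Mcm7, Cdc6 and Cdt1). They were found for 0 of 18 mitosis genes, beside 1.80% of all 27025 genes with a promoter sequence. Other E2F-type forms were not searched, and the Cdk1 stretch holds the related letters tttcgcgc in lower case. The 0 is therefore not an absence of E2F-type sites. A CHR element was found for 14 of 18 mitosis genes and for 3 of 13 replication genes, beside 21.7% of all genes. The CCAAT box was found for 16 of these 18 mitosis genes and 10 of the 13 replication genes, beside 41.1% of all genes. In the corresponding genes outside the 45, the letters were found as an E2F-type motif for 8 of 33 other replication genes and 4 of 39 other mitosis genes (10.3%), and as a CHR element for 26 of 39 other mitosis genes and 6 of 33 other replication genes (18.2%). A match is a description of the letters and not evidence of binding.

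**Figure D1:**
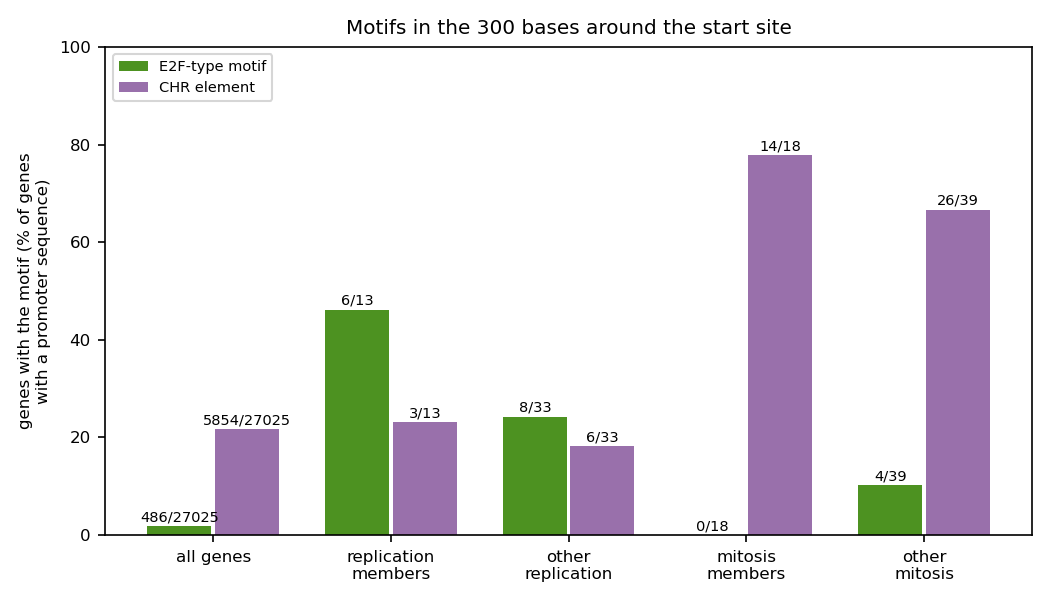
Percentage of genes with a RefSeq promoter sequence that hold an E2F-type motif (green, TTTCCCGC or TTTGGCGC only) or a CHR element (purple) in the 300 bases around the start site, for all genes, the replication and mitosis members and the other replication and mitosis genes. The numbers over the bars are genes with the motif over genes with a sequence, and the E2F-type motif is at 0 of 18 mitosis members while the CHR element is at 14 of 18.

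All 45 genes passed the filter on low counts and were tested among 18177 genes with edgeR's quasi-likelihood test, KO against WT. The log2 fold change was above 0 for 42 of the 45 genes, and 51.4% of all tested genes had a value above 0. The median was 0.40 over the 45 genes and 0.01 over all tested genes. Single differences were small against the spread between lesions. At an unadjusted p-value under 0.05, 1 gene was higher in KO lesions (Cdk1) and 1 was lower (E2f2), beside 6.55% of all tested genes higher and 8.16% lower, so the share of called genes was no larger than in the background. After Benjamini-Hochberg adjustment over all tested genes, 0 of the 45 passed 0.05 in edgeR's test (adjusted p = 0.332 to 0.944), beside 0.0055% of all tested genes. DESeq2's Wald test also left 0 of the 45 under 0.05 after adjustment, beside 2.15% of all genes higher and 3.90% lower. At an unadjusted p-value under 0.05 it gave 3 higher genes (Cdk1, Cdc25c and Plk1) and 1 lower (E2f2), beside 9.27% of all tested genes higher and 10.9% lower. The KO values exceeded the highest WT value in all 3 lesions for 5 genes (Mcm7, Gins2, Cdk1, Plk1 and Cenpf), beside 10.7% of all tested genes, and for 0 genes did the WT lesions all exceed the KO lesions, beside 8.74%. With upper quartile scaling, the split of calls turned to 6 higher (Mcm7, Gins2, Cdk1, Cdc25c, Plk1 and Cenpf) and 0 lower, but it also moved the median of all tested genes to 0.11 and their calls to 10.7% higher and 6.49% lower.

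**Figure D2:**
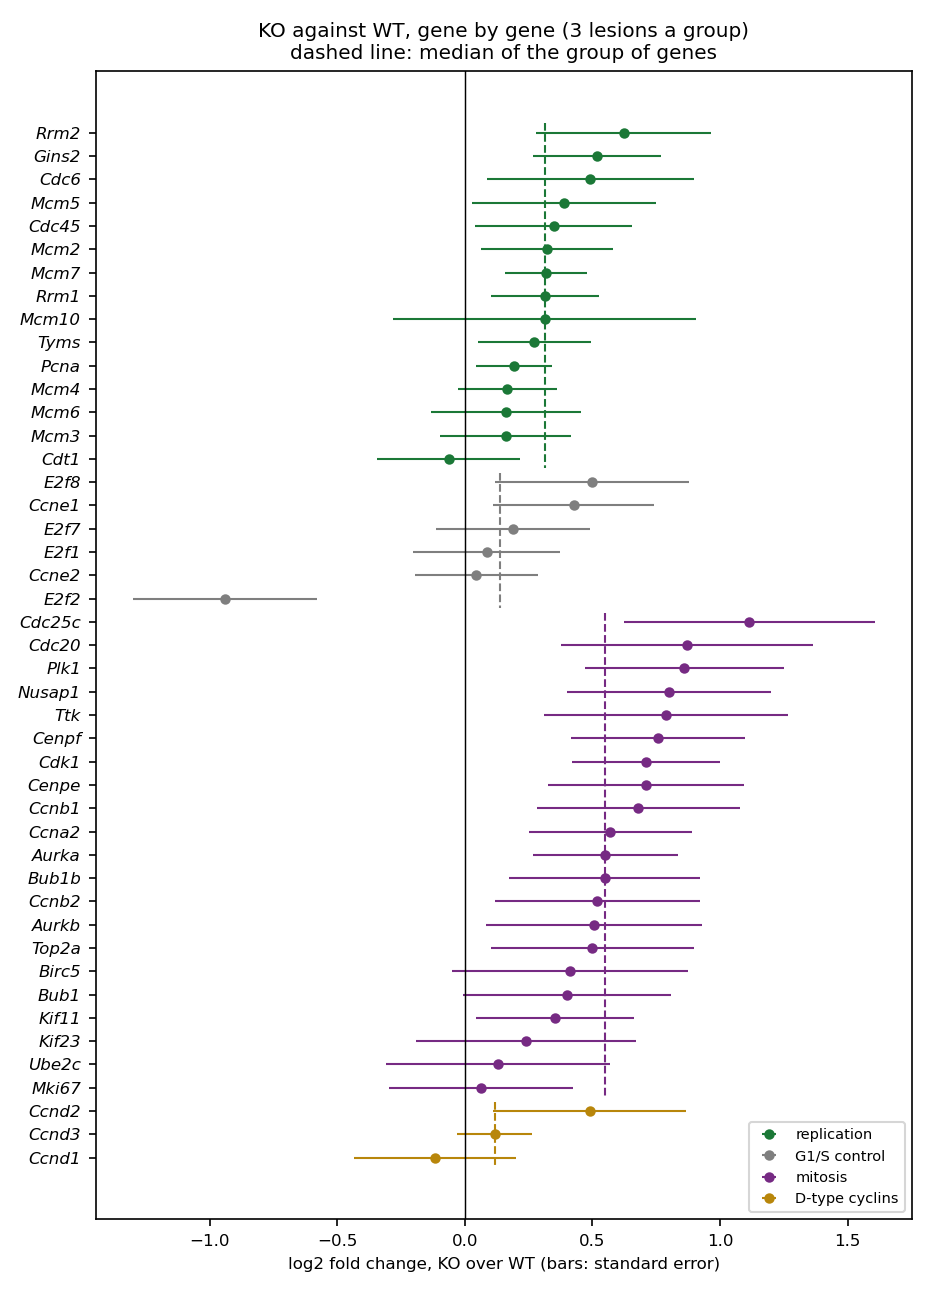
Log2 fold change of KO over WT (x axis) with its standard error for each of the 45 genes, ordered within replication, G1/S control, mitosis and D-type cyclin genes, 3 lesions a group. The dashed lines are the medians of each group of genes, at 0.31 for replication and 0.55 for mitosis, and E2f2 is the gene farthest below 0.

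The genes differed widely in level. Per exon length (RPKM, the CPM divided by the exon length in kilobases), the WT mean ran from 0.468 (Mcm10) to 21.2 (Pcna) over the replication genes with a median of 4.41, and from 0.225 (Cdc25c) to 5.32 (Ccnb2) over the mitosis genes with a median of 2.17. The KO medians on this scale were 5.77 and 3.17 RPKM. The D-type cyclins lay between 7.65 (Ccnd3) and 17.3 (Ccnd1) RPKM in WT lesions, above every mitosis gene, and the E2F and cyclin E genes between 0.281 (E2f7) and 2.19 (E2f1). Counts behind single values ran from 40 to 4878 in mitosis genes and from 84 to 4686 in replication genes.

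**Figure D3:**
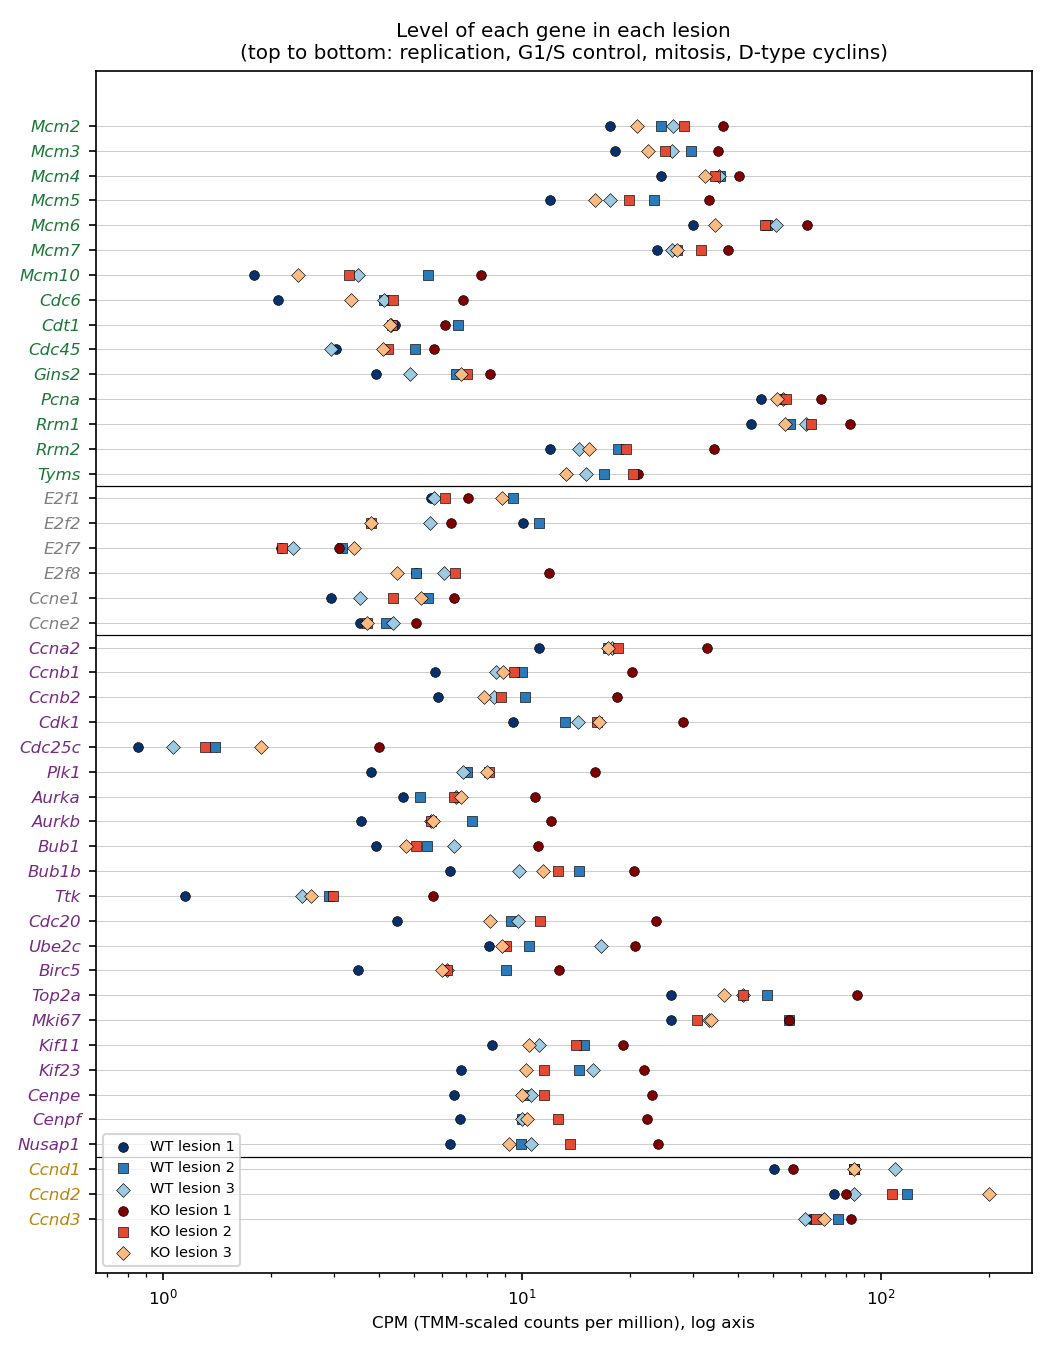
Level of each of the 45 genes in each of the 6 lesions in CPM on a log axis, blue shades for WT and red to orange shades for KO, with the gene names coloured by replication, G1/S control, mitosis and D-type cyclins. KO lesion 1 (dark red circles) lies farthest right for 38 genes, and WT lesion 1 (dark blue circles) lies farthest left for 39.

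The helicase that unwinds DNA at origins is the hexamer of Mcm2 to Mcm7, which Cdc6 and Cdt1 load and which Cdc45 and the GINS complex activate. Mcm7 (ENSMUSG00000029730.17) had 23.8, 27.0 and 26.2 CPM in WT lesions 1, 2 and 3 and 37.5, 31.5 and 27.0 CPM in KO lesions 1, 2 and 3. Gins2 (ENSMUSG00000031821.12), a GINS subunit, had 3.93, 6.57 and 4.87 CPM in the WT lesions against 8.17, 7.03 and 6.79 CPM in the KO lesions. In both genes the groups did not overlap (two-sided exact permutation p = 0.1, which 3 lesions against 3 cannot go below), although the lowest KO lesion was next to the highest WT lesion. Their log2 fold changes were 0.32 (standard error 0.16, adjusted p = 0.384 from edgeR) and 0.52 (standard error 0.25, adjusted p = 0.371 from edgeR). Mcm2 (ENSMUSG00000002870.9) had 17.6, 24.5 and 26.3 CPM in the WT lesions against 36.3, 28.2 and 20.9 CPM in the KO lesions, so that KO lesion 3 lay inside the WT range. The other hexamer genes Mcm3, Mcm4, Mcm5 and Mcm6 had log2 fold changes of 0.16 to 0.39 with overlapping groups. Of the loading and activating factors, Cdc6 (0.49), Cdc45 (0.35) and Mcm10 (0.31) were on the KO side with standard errors of 0.31 to 0.59, and Cdt1 was at -0.06 (standard error 0.28). Cdt1 was the one replication gene with its highest value in a WT lesion, 6.66 CPM in WT lesion 2.

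Pcna is the sliding clamp that holds DNA polymerase on its template, and Rrm1, Rrm2 and Tyms make its building blocks. Pcna (ENSMUSG00000027342.15) had 46.5, 52.6 and 53.4 CPM in the WT lesions against 68.3, 54.5 and 51.4 CPM in the KO lesions. Apart from KO lesion 1, the lesions lay within 46.5 to 54.5 CPM, and the log2 fold change was 0.19 (standard error 0.15). Rrm2, the subunit of ribonucleotide reductase that limits its activity in S phase, had the largest log2 fold change of the replication genes (0.62, standard error 0.34), with 34.3 CPM in KO lesion 1 and at most 19.5 CPM in the other 5 lesions. Its partner Rrm1, which is more stable through the cycle, was at 0.31 (standard error 0.21), and thymidylate synthase, Tyms, at 0.27 (standard error 0.22). Groups overlapped in all 4 genes.

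The genes of the commitment step differed among themselves. E2f2 (ENSMUSG00000018983.10), an activating E2F, had 10.1, 11.2 and 5.55 CPM in the WT lesions against 6.33, 3.81 and 3.79 CPM in the KO lesions. KO lesion 1 lay above WT lesion 3, so the groups overlapped by that pair, and the log2 fold change was -0.94 (standard error 0.36, unadjusted p = 0.0398 and adjusted p = 0.332 from edgeR). It was the only one of the 45 genes that fell at the unadjusted threshold. Its direction held in all 12 other settings tried (-1.23 to -0.75), and the unadjusted p-value from edgeR or DESeq2 was under 0.05 in 7 of them. It was above 0.05 with upper quartile scaling (-0.85) and without WT lesion 1 (-0.85), WT lesion 2 (-0.75), KO lesion 2 (-0.81) or KO lesion 3 (-0.81). E2f1 (ENSMUSG00000027490.18), the better known activating E2F, had 5.59, 9.45 and 5.68 CPM in the WT lesions against 7.07, 6.12 and 8.81 CPM in the KO lesions, with no order between the groups (0.09, standard error 0.29). The repressive family members E2f7 (0.19) and E2f8 (0.50) and the cyclin E genes Ccne1 (0.43) and Ccne2 (0.05), whose products drive CDK2 at the start of DNA synthesis, had standard errors of 0.24 to 0.38 and overlapping groups.

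Entry into mitosis runs through CDK1, which cyclins A2, B1 and B2 bind and Cdc25c, Plk1 and Aurka activate. Cdk1 (ENSMUSG00000019942.14) had 9.48, 13.2 and 14.4 CPM in the WT lesions against 28.1, 16.2 and 16.4 CPM in the KO lesions. It was the only one of the 45 genes that rose at the unadjusted threshold (log2 fold change 0.71, standard error 0.29, unadjusted p = 0.0499 and adjusted p = 0.340 from edgeR, two-sided exact permutation p = 0.1), and every KO lesion lay above every WT lesion. Its log2 fold change was 0.40 without KO lesion 1 and 0.55 without WT lesion 1, with unadjusted p-values of 0.147 and 0.140 from edgeR, and the p-value was also above 0.05 without WT lesion 2 (0.76) or WT lesion 3 (0.81), with DESeq2's size factors (0.70) and with the replicate number as a block (0.68). Plk1 (ENSMUSG00000030867.8), the polo-like kinase, had 3.80, 7.02 and 6.88 CPM in the WT lesions against 15.98, 8.12 and 8.02 CPM in the KO lesions. The groups did not overlap, but KO lesions 2 and 3 were close to WT lesions 2 and 3 (log2 fold change 0.86, standard error 0.39, adjusted p = 0.358 from edgeR). Ccnb1 (ENSMUSG00000041431.17) had 5.72, 9.99 and 8.46 CPM in the WT lesions against 20.3, 9.52 and 8.88 CPM in the KO lesions. Leaving aside WT lesion 1 and KO lesion 1, the values of Ccnb1 spanned 8.46 to 9.99 CPM and both groups shared that range (log2 fold change 0.68, standard error 0.40). The largest log2 fold change of the 45 genes was that of the phosphatase gene Cdc25c (1.11, standard error 0.49, adjusted p = 0.353 from edgeR), at low levels of 0.854 to 1.40 CPM in the WT lesions against 1.31 to 4.00 CPM in the KO lesions. Ccna2 (0.57), Ccnb2 (0.52) and the kinase gene Aurka (0.55) had standard errors of 0.28 to 0.40.

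The spindle checkpoint delays chromosome separation until every kinetochore is attached, and the anaphase-promoting complex then starts it. Of the checkpoint kinase genes, Bub1 was at 0.40, Bub1b at 0.55, Ttk at 0.79 and Aurkb at 0.51 on the log2 scale of KO over WT, and the survivin gene Birc5, whose product forms a complex with Aurora B, was at 0.41. Their standard errors were 0.37 to 0.48. Cdc20, the activator of the anaphase-promoting complex, had 23.7 CPM in KO lesion 1 and 4.48 CPM in WT lesion 1, the widest ratio between these lesions among the 45 genes (5.28), and 8.17 to 11.2 CPM in the other 4 lesions. Ube2c, the ubiquitin-conjugating enzyme of the same complex, was at 0.13 (standard error 0.44), since WT lesion 3 at 16.6 CPM came close to KO lesion 1 at 20.6 CPM. In all 7 genes KO lesion 1 was the highest, WT lesion 1 was the lowest and the groups overlapped.

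The third set of mitosis genes builds the chromosome and the spindle. Top2a (ENSMUSG00000020914.18), the topoisomerase that untangles sister chromatids, had 26.1, 48.4 and 41.2 CPM in the WT lesions against 85.6, 41.3 and 36.6 CPM in the KO lesions. The value of KO lesion 1 was above all others, and KO lesions 2 and 3 lay between the WT lesions (log2 fold change 0.50, standard error 0.40). Mki67 (ENSMUSG00000031004.9), which encodes the Ki-67 proliferation marker, had 26.0, 55.5 and 33.2 CPM in the WT lesions against 55.4, 30.8 and 33.7 CPM in the KO lesions. It was the one mitosis gene in which KO lesion 1 was not the highest, as WT lesion 2 matched it, and the WT mean of 38.2 ± 15.4 CPM (SD, n = 3) stood against a KO mean of 39.9 ± 13.4 CPM (SD, n = 3). The sign of its log2 fold change (0.06, standard error 0.36) turned without WT lesion 1 (-0.15), WT lesion 3 (-0.06) or KO lesion 1 (-0.25). Cenpf (ENSMUSG00000026605.15), a kinetochore protein gene, had 6.75, 9.99 and 10.04 CPM in the WT lesions against 22.3, 12.6 and 10.3 CPM in the KO lesions, and the lowest KO value was just above the highest WT value (log2 fold change 0.76, standard error 0.34, adjusted p = 0.358 from edgeR). The kinetochore motor gene Cenpe (0.71) and the microtubule-binding gene Nusap1 (0.80) were near Cenpf, and the spindle motor genes Kif11 (0.35) and Kif23 (0.24) were lower, with standard errors of 0.31 to 0.43.

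The D-type cyclins, which couple the cycle to growth signals, followed the other genes from lesion to lesion only in part. Ccnd1 (ENSMUSG00000070348.6) had 50.4, 84.1 and 110 CPM in the WT lesions against 56.9, 84.0 and 84.3 CPM in the KO lesions, so that KO lesion 1 was the second lowest. Ccnd2 (ENSMUSG00000000184.13) had 73.9, 118 and 84.4 CPM in the WT lesions against 80.2, 107 and 201 CPM in the KO lesions, with its highest value in KO lesion 3. Ccnd3 (ENSMUSG00000034165.17) had 63.7, 76.2 and 61.5 CPM in the WT lesions against 82.7, 66.2 and 69.4 CPM in the KO lesions, the narrowest spread of the 3 genes, with its highest value in KO lesion 1 as in most of the 45 genes. The log2 fold changes were -0.12 (standard error 0.32), 0.49 (standard error 0.38) and 0.12 (standard error 0.15), all with overlapping groups. WT lesion 1 was the lowest lesion for Ccnd1 and Ccnd2 and the second lowest for Ccnd3.

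Replication and mitosis genes were compared within each lesion, as the log2 CPM of each gene minus its mean over the 6 lesions. The medians over the 15 replication genes were -0.49, 0.09 and -0.03 in WT lesions 1, 2 and 3 and 0.47, 0.11 and -0.20 in KO lesions 1, 2 and 3. Over the 21 mitosis genes they were -0.76, -0.07 and -0.12 in WT and 0.96, -0.01 and -0.15 in KO lesions. Both sets thus had the same lowest and highest lesion, and the other 4 lesions, 2 of each genotype, lay close together, from -0.20 to 0.11 for replication and from -0.15 to -0.01 for mitosis. KO lesion 1 was the highest lesion for 14 of 15 replication and 20 of 21 mitosis genes, beside 19.9% of all tested genes, and WT lesion 1 was the lowest for 12 and 21, beside 15.5%. The excess was not equal in the 2 sets. From WT lesion 1 to KO lesion 1, the median difference was 0.95 on the log2 scale over the replication genes (0.46 to 2.08) and 1.71 over the mitosis genes (1.09 to 2.39), or 1.93-fold and 3.27-fold. Replication minus mitosis, as the difference of the medians, was 0.26, 0.16 and 0.09 in WT and -0.49, 0.11 and -0.05 in KO lesions, so that KO lesion 1 alone lay far below 0. Of the 315 pairs of 1 replication and 1 mitosis gene, the replication gene had the higher value on this scale in 82.2%, 65.4% and 55.9% of pairs in WT lesions and in 11.4%, 65.7% and 43.2% in KO lesions. The summed CPM of the mitosis genes divided by that of the replication genes was 0.621, 0.796 and 0.728 in WT and 1.01, 0.698 and 0.762 in KO lesions. KO lesion 1 lay outside the WT range on all 3 measures. KO lesion 3 lay outside it, on the same side, for the difference of medians and the share of pairs but inside it for the ratio of sums, and KO lesion 2 lay inside it on all 3.

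**Figure D4:**
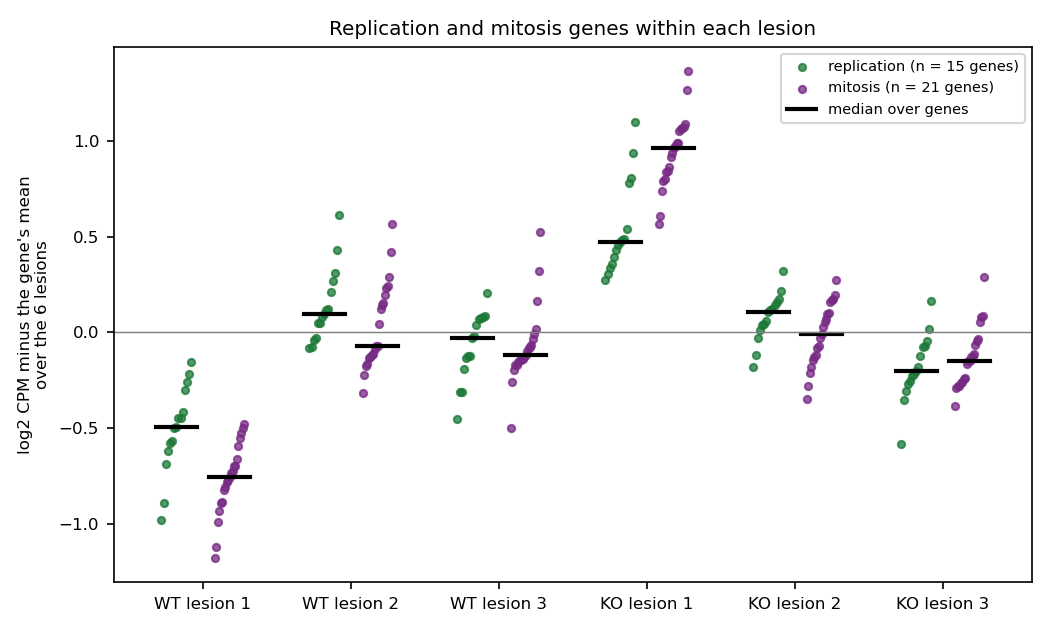
Log2 CPM of each gene minus its mean over the 6 lesions (y axis), for the 15 replication genes (green) and the 21 mitosis genes (purple) in each lesion, with black bars for the medians. Mitosis genes spread farther than replication genes from WT lesion 1 (median -0.76 against -0.49) to KO lesion 1 (0.96 against 0.47), and both sets lie near 0 in the other 4 lesions.

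Over the groups, the median log2 fold change of KO over WT was 0.31 for the replication genes (-0.06 to 0.62) and 0.55 for the mitosis genes (0.06 to 1.11), a difference of -0.24. The replication gene had the higher log2 fold change in 56 of the 315 pairs. Of the mitosis genes, 9 lay above Rrm2, the highest replication gene, and Mki67, Ube2c and Kif23 lay below the replication median. These values are descriptions, since genes of 1 programme in the same lesions are not independent replicates. They leaned on 2 lesions, KO lesion 1 and WT lesion 1, which are the extremes of these same genes. Leaving out either was therefore bound to lower the medians, and only the size of the change is informative. Without KO lesion 1 the medians were 0.11 and 0.22, and without WT lesion 1 they were 0.17 and 0.38. Without both, which was added after seeing the values and was done likewise for lesions 2 and for lesions 3, the medians were -0.07 and -0.03, and 18 of the 45 genes were on the KO side in place of 42. Without WT lesion 2 and KO lesion 2 the medians were 0.38 and 0.95, and without WT lesion 3 and KO lesion 3 they were 0.49 and 0.81.

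**Figure D5:**
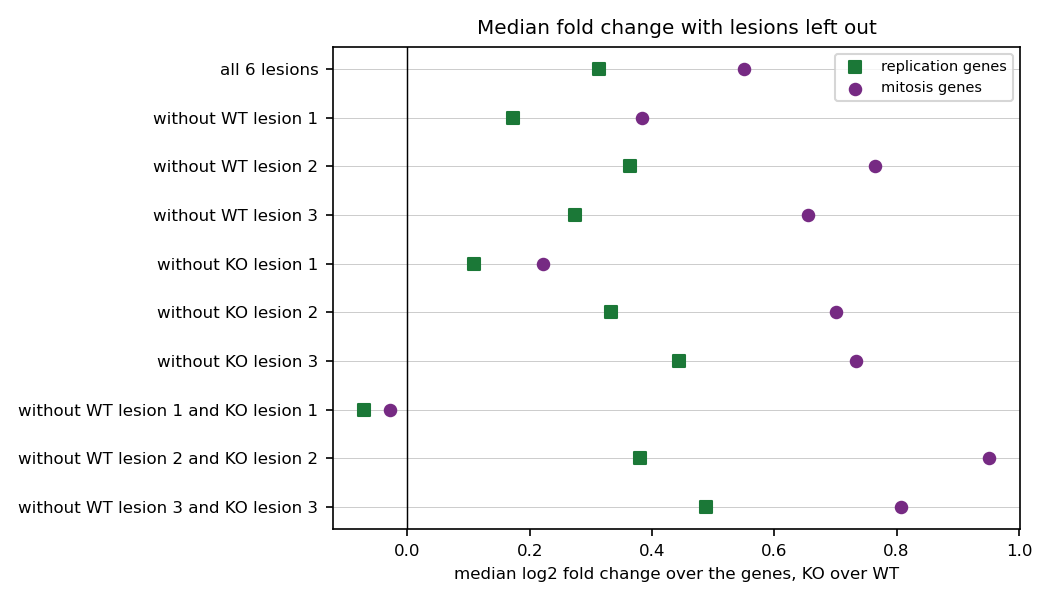
Median log2 fold change of KO over WT (x axis) over the 15 replication genes (green squares) and the 21 mitosis genes (purple circles), with all 6 lesions and with lesions left out singly or in pairs (rows). Mitosis lies to the right of replication in every row, and both medians pass below 0 when WT lesion 1 and KO lesion 1 are left out together (-0.07 and -0.03).

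Genes of the same programme outside the 45 were read from 3 lists. Of 40 other replication genes, 35 had a log2 fold change above 0 with a median of 0.28, and 0 passed an unadjusted p-value of 0.05 in either direction in edgeR's test. Of 48 other mitosis genes, 44 were above 0 with a median of 0.53, and 7 were higher and 1 lower at the unadjusted threshold, beside 6.55% and 8.16% of all tested genes. The 5 with the smallest p-values were Pttg1, Mad2l1, Spc25, Spc24 and Cenpk. Mad2l1, a component of the spindle checkpoint, had 30.7, 26.2 and 42.6 CPM in the WT lesions against 99.1, 74.1 and 44.9 CPM in the KO lesions (log2 fold change 1.13, adjusted p = 0.321 from edgeR and 0.0491 from DESeq2). Spc24 (1.20) and Spc25 (1.17), 2 subunits of the NDC80 complex that joins kinetochores to microtubules, and the centromere protein gene Cenpk (0.84) likewise had all KO lesions above all WT lesions, with adjusted p-values of 0.327 to 0.328 from edgeR. Spc25 had 4.10, 4.19 and 4.87 CPM in the WT lesions against 14.5, 9.46 and 5.63 CPM in the KO lesions, so that KO lesion 2 stood clear of the WT range as well. Pttg1, the securin gene that holds the separating enzyme in check, went the other way, with 21.4, 22.9 and 21.2 CPM in the WT lesions against 15.4, 17.5 and 15.5 CPM in the KO lesions (log2 fold change -0.43, adjusted p = 0.321 from edgeR and 0.00668 from DESeq2). Of 24 genes of CDK partners, retinoblastoma proteins, other E2F factors and CDK inhibitors, 13 were above 0 with a median of 0.01. E2f5 (0.67) was higher and Mdm2, a p53 target that encodes the ligase of p53, was lower (-0.61) at the unadjusted threshold, with an adjusted p-value of 0.328 from edgeR for both.

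Markers of the cells in a lesion also differed between the lesions. The summed level of the 8 endometrial epithelium markers was 20651, 11413 and 17837 CPM in the WT lesions against 36432, 28180 and 17122 CPM in the KO lesions, highest in KO lesion 1, and 0 of the 8 passed the unadjusted threshold. Most of that sum was Ltf, an estrogen-induced secretory gene of the uterine epithelium (9882 to 33570 CPM). Epcam had 240, 268 and 412 CPM in the WT lesions against 468, 420 and 211 CPM in the KO lesions, with the highest value in KO lesion 1 and WT lesion 1 the second lowest. The other epithelial markers did not share this order. WT lesion 2 was the lowest for Cdh1, Krt8, Krt18, Pax8 and Ltf, and KO lesion 3 for Krt19 and Foxa2. KO lesion 1 was also the highest for Cdh1, Krt8 and Ltf, but KO lesion 2 was for Krt18, Pax8 and Foxa2 and WT lesion 3 for Krt19. Of the 8 stroma markers, 3 were higher at the unadjusted threshold (Esr1, Hand2 and Hoxa11), and their sum was 1493 to 1608 CPM in the WT lesions against 1224 to 1768 CPM in the KO lesions. All 7 tested skeletal muscle markers were lower in KO lesions at that threshold. WT lesion 3, in which their sum was as high as in WT lesion 1, had a mitosis median of -0.12 against -0.76, and Myh1 and Myh4 were at 0 in every KO lesion. All 6 neutrophil markers and all 7 T-cell markers had log2 fold changes below 0, 3 and 6 of them past edgeR's unadjusted threshold. Their sums were highest in WT lesion 2 (9830 and 91.4 CPM), where Mki67 was also highest. S100a8 and S100a9 had every WT lesion above every KO lesion. For Retnlg, WT lesions 1 and 3 (15.6 and 17.3 CPM) lay below every KO lesion (19.3 to 37.2 CPM). DESeq2's test gave no p-value for the 6 neutrophil markers. The T-cell sum was 32.4 to 91.4 CPM in the WT lesions against 5.60 to 24.9 CPM in the KO lesions. The sum of the 7 markers of B and plasma cells, mostly Xbp1 outside WT lesion 2, was 331 to 903 CPM in the WT lesions against 366 to 478 CPM in the KO lesions, with 5 of 7 lower at that threshold. Of the 6 smooth muscle markers, 5 were higher at that threshold (Myh11, Cnn1, Actg2, Smtn and Lmod1), each with every KO lesion above every WT lesion and its highest value in KO lesion 1. Myh11, the smooth muscle myosin gene, had 233, 177 and 241 CPM in the WT lesions against 499, 373 and 396 CPM in the KO lesions. The sixth, Des, is also a gene of skeletal muscle, and its 2675 and 1357 CPM in WT lesions 1 and 3 made up most of the summed level there (3238 and 1889 CPM, against 459 to 1670 CPM in the other lesions). The 6 macrophage markers had lower values without a call, with a sum of 974 to 2321 CPM in the WT lesions against 469 to 1184 CPM in the KO lesions. KO lesion 3, in which Ccnd2 was highest, also had the highest sums of the 5 adipocyte markers (3280 CPM, against 391 to 2269 CPM elsewhere) and of the 6 erythroid markers (726 CPM, against 54.5 to 621 CPM), with 0 calls in either list. The 5 endothelial markers had lower values without a call, with a sum of 481 to 590 CPM in the WT lesions against 216 to 617 CPM in the KO lesions. The pancreatic acinar markers were at 4141 CPM in WT lesion 3 and at 7.19 to 16.2 CPM elsewhere, with Prss2 at 0 in the other 5 lesions. The part of these cell types in the values of the replication and mitosis genes was not tested.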

How the data were processed

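The authors prepared stranded messenger RNA libraries, trimmed the reads (Trimmomatic is named in the submitters' notes), mapped them and counted reads per gene with featureCounts. The study's methods name GRCm38 and the submitters' notes GRCm39, and the aligner is not given in the sources used here. The deposited values are raw counts of 56884 genes, and the table of the series and the files of the 6 libraries hold the same counts. Symbols were found for 51948 identifiers in GENCODE M21, whose exon lengths (GRCm38) gave RPKM and can differ from the authors' gene models. Identifiers without a symbol held 3.04% to 3.56% of the counts.

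The analysis ran in R 4.3.3 on edgeR 4.0.16, with filterByExpr, TMM scaling, and the quasi-likelihood test with genotype as the only term, with Benjamini-Hochberg adjustment over 18177 genes. A standard error is the size of the log2 fold change over the root of its F statistic. Log2 CPM used a prior count of 2. Steps were tested on simulated data. The alternatives were DESeq2 1.42.0 (Wald test), scaling in edgeR by the size factors of DESeq2 or by the upper quartile, other filters on low counts, the replicate number as a block, and each lesion left out. The members and gene lists were chosen with earlier results of these data known. All 45 members are named, with values in every lesion for those past the unadjusted threshold, those whose groups do not overlap and 10 fixed genes, and of other lists up to 5 with the smallest unadjusted p-value under 0.05. The labels number the lesions 1 to 3 in each group and the methods name 3 donors a genotype. Counts carry no molecular identifiers, so that the tests rest on the spread between lesions.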

Additional observations from a re-analysis of the deposited data

How the results depend on the processing

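The count of genes with an adjusted p-value under 0.05 stayed at 0 of 45 in all 12 settings listed under the processing and the 3 added after seeing the data, in edgeR and in DESeq2. The counts at an unadjusted p-value under 0.05, 1 higher and 1 lower, were less stable. They were 0 higher and 1 lower with DESeq2's size factors, beside 6.34% of all tested genes higher and 8.27% lower. Upper quartile scaling gave 6 higher and 0 lower (all tested genes: 10.7% and 6.49%). DESeq2's test gave 3 higher and 1 lower (9.27% and 10.9%), and the replicate number as a block gave 0 higher and 1 lower (3.37% and 4.33%). Leaving out lesions, singly or by number in both groups, gave 0 to 6 higher and 0 to 1 lower genes. The shares over all tested genes in these settings were 1.88% to 11.5% higher and 2.90% to 12.4% lower. The 6 were found without KO lesion 3 (Mcm7, Rrm2, Tyms, Cdk1, Cenpf and Nusap1), where 11.5% of all tested genes were called higher. The 0 for higher genes was found without WT lesion 1, WT lesion 3 or KO lesion 1 and without both lesions 1. The same settings gave medians of -0.071 to 0.49 for replication, -0.028 to 0.95 for mitosis and -0.57 to -0.043 for replication minus mitosis, the lowest medians being those without WT lesion 1 and KO lesion 1. The sign of a single log2 fold change turned in at least 1 of these settings for the genes that follow, with their ranges. Among replication genes these were Mcm3 (-0.26 to 0.38), Mcm6 (-0.29 to 0.49), Mcm10 (-0.69 to 0.93), Cdt1 (-0.37 to 0.25), Mcm2 (-0.071 to 0.61), Mcm4 (-0.11 to 0.31), Mcm5 (-0.21 to 0.74), Cdc6 (-0.13 to 0.85), Pcna (-0.025 to 0.30) and Rrm1 (-0.020 to 0.55). Among G1/S control genes they were E2f1 (-0.19 to 0.50), Ccne2 (-0.23 to 0.18), E2f8 (-0.042 to 0.85) and E2f7 (-0.018 to 0.55). Among mitosis genes they were Ube2c (-0.63 to 0.67), Mki67 (-0.48 to 0.59), Kif23 (-0.49 to 0.65), Bub1 (-0.30 to 0.79), Birc5 (-0.34 to 0.95), Ccnb1 (-0.028 to 1.05), Ccnb2 (-0.19 to 0.89), Aurkb (-0.21 to 0.96), Bub1b (-0.031 to 0.99), Top2a (-0.22 to 0.86) and Kif11 (-0.10 to 0.61). Among D-type cyclins they were Ccnd1 (-0.37 to 0.14), Ccnd3 (-0.045 to 0.29) and Ccnd2 (-0.041 to 0.83). Cdt1 also turned with upper quartile scaling (0.031). The cause was not tested. Lesions with the same number did not deviate together (r = 0.03, -0.15 and -0.20 over genes), so the numbers were not read as pairs, and the block gave medians of 0.30 for replication and 0.53 for mitosis. The precision rests on 3 lesions a group with a common biological coefficient of variation of 44.2% between them.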
